A study of Mus musculus with 46 samples.

Results

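The enzymes that turn neuropeptide precursors into active peptides were followed in AgRP and POMC neurons of the arcuate nucleus. These were 8 genes, Pcsk1, Pcsk2, Pcsk5, Furin, Cpe, Cpd, Pam and Prcp, taken by name from a count table of 31854 genes. All 8 passed the filter on low values in every RNA comparison. Chromatin at these genes was described by the ATAC-seq peaks that reach within 50 kb of their start sites. These were 66 of 123721 peaks in the nuclei of fed, fasted and leptin-treated AgRP neurons, of which 51 passed the filter, and 28 of 67472 peaks in AgRP-positive and AgRP-negative nuclei, of which 27 passed.

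Neuropeptides are made as large precursors and are cut and trimmed on their way through the secretory pathway. Proprotein convertases cut at pairs of basic residues, carboxypeptidases remove the basic residues left at the new C terminus, and an amidating enzyme converts a C-terminal glycine into an amide, which many peptides need for activity. In the arcuate nucleus this route yields alpha-MSH from the Pomc precursor in POMC neurons, and NPY and processed AgRP in AgRP neurons. Pcsk1 and Pcsk2 are the convertases of dense-core granules. Furin acts in the trans-Golgi network, and Pcsk5 cuts precursors of growth factors and other constitutively secreted proteins. Cpe is the carboxypeptidase of the granules and Cpd that of the trans-Golgi network. Pam is the amidating enzyme, and Prcp, prolylcarboxypeptidase, removes a C-terminal residue from alpha-MSH and thereby inactivates it.

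The mice were male C57BL/6J NuTRAP animals, in which Cre recombinase switches on a GFP-tagged ribosomal protein (GFP-L10a) and an mCherry-tagged nuclear membrane protein (mCherry-RANGAP). Cre came from AgRP-IRES-Cre in one line and from POMC-IRES-Cre in the other, so the line and the cell type cannot be told apart. RNA bound to tagged ribosomes was isolated by TRAP, which leaves some RNA of other cells in each sample, and counted per gene. For AgRP neurons there were 3 fed, 4 fasted and 4 leptin-treated samples and for POMC neurons 2 samples in each state. Fed mice ate ad libitum, fasted mice went without food overnight, and leptin-treated mice were fasted in the same way before leptin. Fed and fasted mice received PBS as the vehicle. For the AgRP RNA and the ATAC-seq of the 3 states, 4 arcuate nuclei of mice of 6 to 11 weeks were pooled per sample, the fast lasted 18 to 20 h, and tissue was taken 3 h after the injection of PBS or of 5 mg/kg leptin. These values were not stated separately for the POMC samples or the sorted nuclei. ATAC-seq, which counts transposase insertions in accessible chromatin, was run on sorted nuclei in 2 samples per state. It was also run on AgRP-positive and AgRP-negative nuclei sorted from the same pools, 2 samples each. The study's text names no feeding state for these pools.

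The AgRP libraries held 25581041 to 54511107 counts on genes and the POMC libraries 30704075 to 53217053. The ATAC-seq libraries held 8263234 to 17190963 counts in the 3 states, the lowest in fed replicate 1, and 8685497 to 11177208 in the sorted nuclei. The labels of the lines were borne out by the peptide genes that define them. In fed mice Agrp stood at 383 CPM (counts scaled to the size of the library) in the AgRP line and 7.78 in the POMC line, and Pomc at 30.0 and 1672. The astrocyte transporter gene Slc1a2 took 1.93 to 2.42% of the counts in 6 libraries, replicate 4 of each AgRP state and replicate 2 of each POMC state, against 0.240 to 0.641% in the other 11. In the AgRP line the summed level of 5 astrocyte markers was 495 to 834 CPM in fed, 402 to 879 in fasted and 391 to 880 in leptin-treated mice, and that of 5 oligodendrocyte markers 476 to 751, 422 to 692 and 424 to 766. The 5 microglia markers summed to 21.9 to 39.7, 15.6 to 37.4 and 17.5 to 35.8 CPM, and the 6 AgRP neuron markers to 1654 to 2335, 2954 to 6441 and 2150 to 6378 CPM. Because whole tissue was pooled, fewer tagged cells and less RNA per tagged cell cannot be told apart.

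The sequences of the peaks that changed most between fasted and fed mice, and of the Pcsk1 promoter, are given to show any motif matches. Each peak sequence is the central 300 bases of the peak on the plus strand of mm10, and the promoter is the window of 250 bases before to 50 after the RefSeq start of Pcsk1 on GRCm38.p6, whose coordinates are those of mm10, also on the plus strand. Capitals mark matches to the motif of AP-1 (TGANTCA), of STAT factors (TTCNNNGAA) or of CREB (TGACGTCA). The first 3 peaks gained accessibility in fasted mice and the fourth lost it. The intronic Pcsk1 peak was added after its values were seen.
Pam peak at -23.8 kb, chr1:98119265-98119564: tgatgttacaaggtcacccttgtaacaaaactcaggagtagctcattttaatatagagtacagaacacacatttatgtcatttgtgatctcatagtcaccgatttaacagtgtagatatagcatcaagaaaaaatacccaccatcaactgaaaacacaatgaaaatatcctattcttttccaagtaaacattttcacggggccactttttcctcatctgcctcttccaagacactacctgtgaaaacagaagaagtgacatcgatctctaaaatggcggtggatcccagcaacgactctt
Cpe peak at -14.6 kb, chr8:64707546-64707845: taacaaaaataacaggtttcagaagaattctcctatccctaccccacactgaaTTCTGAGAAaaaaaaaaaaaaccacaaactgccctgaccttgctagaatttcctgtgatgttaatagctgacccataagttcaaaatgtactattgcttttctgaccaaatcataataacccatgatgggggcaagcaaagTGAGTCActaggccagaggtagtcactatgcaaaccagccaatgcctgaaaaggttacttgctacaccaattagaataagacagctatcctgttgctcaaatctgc
Pcsk2 peak at -7.8 kb, chr2:143538178-143538477: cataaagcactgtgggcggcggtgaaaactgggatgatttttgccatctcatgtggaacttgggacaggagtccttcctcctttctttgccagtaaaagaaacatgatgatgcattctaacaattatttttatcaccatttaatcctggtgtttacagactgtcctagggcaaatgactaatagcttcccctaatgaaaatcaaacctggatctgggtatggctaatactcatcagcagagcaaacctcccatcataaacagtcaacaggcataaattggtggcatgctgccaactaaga
Pcsk2 peak at -38.8 kb, chr2:143507245-143507544: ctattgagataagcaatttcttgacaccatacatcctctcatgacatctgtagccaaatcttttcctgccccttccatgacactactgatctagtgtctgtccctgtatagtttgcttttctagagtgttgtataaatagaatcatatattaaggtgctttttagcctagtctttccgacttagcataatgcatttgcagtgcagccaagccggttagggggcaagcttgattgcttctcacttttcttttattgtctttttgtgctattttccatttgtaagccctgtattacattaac
Pcsk1 peak at +25.1 kb, chr13:75114757-75115056: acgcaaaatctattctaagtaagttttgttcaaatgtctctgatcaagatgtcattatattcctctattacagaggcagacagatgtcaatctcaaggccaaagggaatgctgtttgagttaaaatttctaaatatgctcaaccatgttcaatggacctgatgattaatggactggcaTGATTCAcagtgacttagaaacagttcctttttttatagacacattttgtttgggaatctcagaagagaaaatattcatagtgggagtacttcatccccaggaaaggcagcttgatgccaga
Pcsk1 promoter, chr13:75089607-75089906: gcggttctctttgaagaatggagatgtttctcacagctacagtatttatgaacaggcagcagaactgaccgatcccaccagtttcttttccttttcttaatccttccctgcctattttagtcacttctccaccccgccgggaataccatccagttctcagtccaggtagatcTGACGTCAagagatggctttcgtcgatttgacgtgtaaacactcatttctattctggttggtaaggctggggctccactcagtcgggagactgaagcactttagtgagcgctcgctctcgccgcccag

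Per kilobase of gene model, the carboxypeptidase and the amidating enzyme were the most abundant members in both lines, and Pcsk5 was the least abundant. In the 11 AgRP libraries Cpe stood at 521 ± 119 CPM per kb (SD) and Pam at 168 ± 30.0. The granule convertases came next, with Pcsk1 at 57.3 ± 13.4 CPM per kb and Pcsk2 at 20.6 ± 2.96. The enzymes of the trans-Golgi network were lower, with Cpd at 17.9 ± 3.74 CPM per kb and Furin at 6.03 ± 0.529. Prcp stood at 4.00 ± 0.348 CPM per kb and Pcsk5 at 1.21 ± 0.200. In this order only the neighbours Pcsk2 (15.5 to 25.2 CPM per kb over the libraries) and Cpd (13 to 24.3) overlapped.

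In the 6 POMC libraries the order by CPM per kb was the same except that Cpd, at 23.9 ± 2.39, stood before Pcsk2, at 22.3 ± 4.44, and their ranges overlapped there too. Cpe stood at 433 ± 20.7, Pam at 127 ± 9.30, Pcsk1 at 53.2 ± 7.94, Furin at 6.71 ± 0.626, Prcp at 4.08 ± 0.274 and Pcsk5 at 2.16 ± 0.116 CPM per kb. The lowest raw counts per library were those of Prcp, 336 to 743, and the highest those of Cpe, 21618 to 78961, so counting error was small for all members. The lengths are those of the count table, 2171 bases for Cpe and 15533 for Pcsk2, and a length that does not match the transcripts made in these cells would shift a level per kilobase. Some members overlap other annotated genes: Pcsk2 overlaps its antisense genes Pcsk2os1 and Pcsk2os2, Furin the antisense gene Gm44851, and Pam the genes B230216N24Rik and Gm37140 on its own strand. The library kit keeps no strand, so reads of such antisense pairs could not be told apart.

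**Figure D1:**
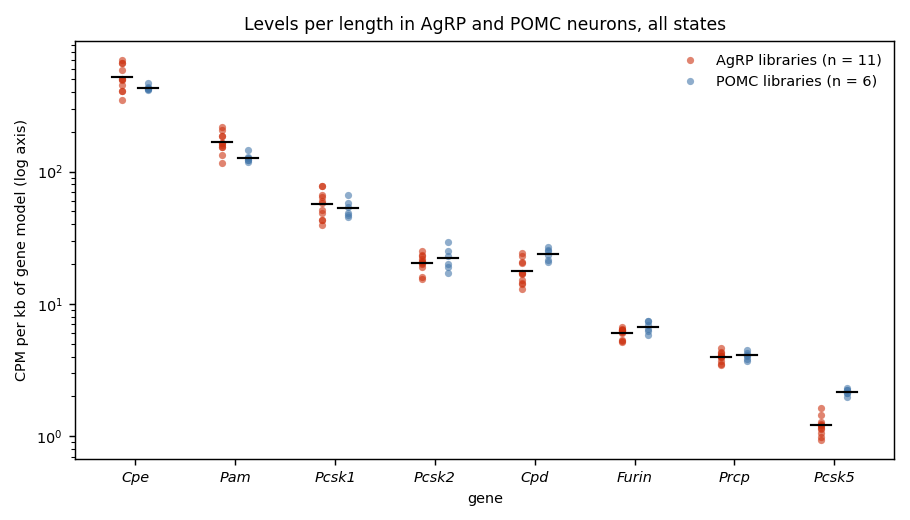
Level of each member per kilobase of gene model (CPM per kb, log axis) in the 11 AgRP and 6 POMC libraries, each point a library and each short line a mean. Cpe stood highest and Pcsk5 lowest in both lines, and only Pcsk2 and Cpd overlapped as neighbours.

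Pcsk1, a granule convertase, rose in AgRP neurons of fasted mice. Its level was 132, 132 and 122 CPM in the 3 fed samples and 239, 199, 240 and 179 CPM in the 4 fasted samples. Every fasted sample lay above every fed sample. The mean went from 129 ± 6.11 to 214 ± 29.8 CPM, a 1.67-fold rise (log2 fold change 0.74, SE 0.12, 95% interval 0.48 to 1.01, adjusted p = 0.00512). Pcsk1 was the 1 member of 8 called higher at a false discovery rate under 0.05 and a log2 fold change over 0.5, and no member was called lower, where 2.82% of the 13401 genes tested were called higher and 1.07% lower. Cell type markers moved with this contrast without a call by edgeR: the 6 AgRP neuron markers all had log2 fold changes above 0 (median 0.60), and all 5 astrocyte and all 4 tested microglia markers below 0 (medians -0.34 and -0.66). Of the AgRP neuron markers, the study reports Agrp, Npy, Acvr1c and Otp as induced by fasting. A change of state and a change in captured AgRP RNA cannot be told apart in them. The part of the cell type markers in the result was not tested. When libraries were scaled to their size, without TMM, the Pcsk1 call was lost (log2 fold change 0.70, adjusted p = 0.0729) and the calls over all genes went from 378 higher and 143 lower to 148 and 90.

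The other granule convertase, Pcsk2, stood at 246, 240 and 310 CPM in fed and 327, 364, 355 and 341 CPM in fasted mice. The groups did not overlap, yet the difference did not pass the test (log2 fold change 0.39, SE 0.13, adjusted p = 0.120). When replicate 4 of all 3 states, rich in Slc1a2, was left out, Pcsk2 passed (log2 fold change 0.51, adjusted p = 0.0110). Furin, the convertase of the trans-Golgi network, had the tightest replicates of all members, 23.8, 22.9 and 23.4 CPM in fed and 28.1, 27.8, 28.1 and 27 CPM in fasted mice. These groups also lay apart, with a log2 fold change of 0.26 (SE 0.07, adjusted p = 0.0574). Pcsk5 stood at 15.1, 11.6 and 17 CPM in fed and 12.5, 14.4, 11.2 and 13.4 CPM in fasted mice, and the groups overlapped (log2 fold change -0.17, SE 0.17, adjusted p = 0.678).

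Pam, the amidating enzyme, stood at 620, 815 and 704 CPM in fed and 863, 978, 1156 and 872 CPM in fasted mice. All fasted samples were above all fed samples, but the change did not pass the test (log2 fold change 0.45, SE 0.16, adjusted p = 0.141). Cpe, the granule carboxypeptidase, stood at 753, 1076 and 881 CPM in fed and 979, 1443, 1524 and 1090 CPM in fasted mice, with overlapping groups (log2 fold change 0.49, SE 0.22, adjusted p = 0.258). Cpd, its counterpart in the trans-Golgi network, stood at 167 ± 30.1 CPM in fed (n = 3) and 150 ± 30.7 in fasted mice (n = 4). Prcp, the enzyme that trims alpha-MSH, stood at 12.8 ± 0.878 and 13.9 ± 1.66 CPM. For Cpd (log2 fold change -0.14, adjusted p = 0.788) and Prcp (0.13, adjusted p = 0.552) the change was within the spread between samples. Over the 8 members 6 log2 fold changes were above 0 with a median of 0.33. Over all genes tested 53.1% were above 0 and the median was 0.02. Of the members 5 had an unadjusted p under 0.05 by edgeR, as had 2584 of the 13401 genes tested. The share of all genes whose fasted and fed samples lay apart is not given here.

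**Figure D2:**
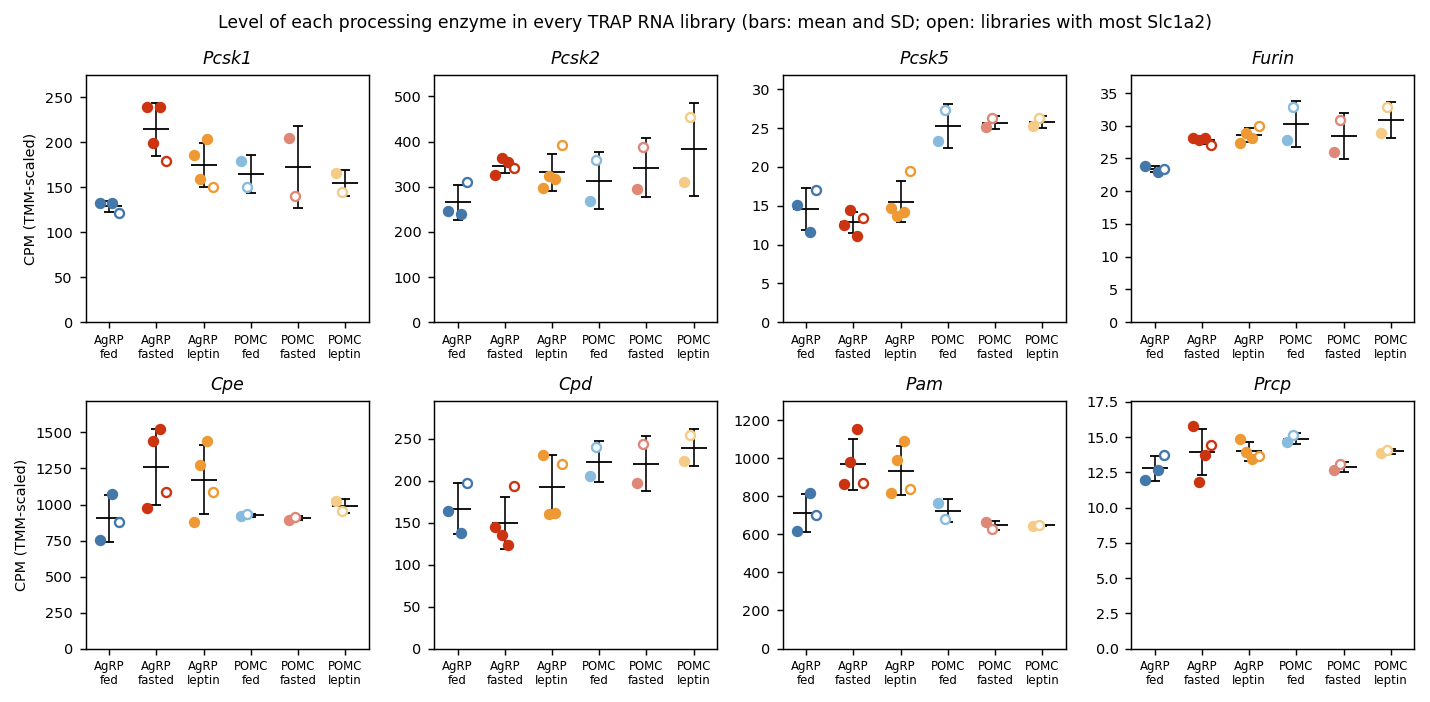
Level of the 8 members (CPM) in each AgRP and POMC library by state, with bars for the mean and SD and open points for the libraries with the most Slc1a2. All 4 fasted AgRP samples lay above all 3 fed samples for Pcsk1, Pcsk2, Furin and Pam. The share of all genes whose groups lay apart in this way is not given here.

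Samples of the AgRP line with the same replicate number deviated together from the means of their groups. The tests above did not model this. With the replicate number as a block more members passed the false discovery rate. In fasted against fed mice the adjusted p was 8.89e-06 for Pcsk1 (log2 fold change 0.77), 0.000215 for Pam (0.43), 0.00049 for Cpe (0.42), 0.00256 for Pcsk2 (0.40) and 0.0170 for Furin (0.25). Of these only Pcsk1 exceeded the fold limit, so the count of called members was 1 with and without the block. The calls over all genes went from 378 higher and 143 lower to 590 and 340. Those calls need the fold limit as well. The share of all genes that pass the false discovery rate alone is not given here for any contrast.

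After leptin was given to fasted mice no member was called against mice fasted alone. Pcsk1 stood at 186, 159, 204 and 151 CPM in the leptin-treated samples, and its log2 fold change against fasted mice was -0.29 (SE 0.11, 95% interval -0.53 to -0.05, adjusted p = 0.344). The leptin-treated and fasted samples overlapped for Pcsk1. Cpd had the largest log2 fold change, 0.36 (95% interval -0.04 to 0.77, adjusted p = 0.664), from 145, 136, 124 and 194 CPM in fasted to 231, 160, 162 and 220 CPM in leptin-treated mice. By edgeR 0 of 8 members were called in either direction, where 1.19% of all genes tested were called higher and 0.634% lower. DESeq2 called 0 members. An unadjusted p under 0.05 by edgeR was found for 1 member, Pcsk1, and for 1224 of the 13401 genes tested. The remaining members had log2 fold changes between -0.10 for Cpe and 0.27 for Pcsk5, and 4 of the 8 were above 0. With the replicate block Pcsk1 (log2 fold change -0.29, adjusted p = 0.00502) and Cpd (0.37, adjusted p = 0.00712) passed the false discovery rate but not the fold limit.

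Against fed mice, which the contrast shares with that of fasting, all 8 members had a log2 fold change above 0 in leptin-treated mice, with a median of 0.32 beside 0.01 over all genes. Pcsk1 (log2 fold change 0.45, adjusted p = 0.0398) and Furin (0.30, adjusted p = 0.0244) passed the false discovery rate without reaching the fold limit. Furin stood at 27.4, 28.9, 28.1 and 29.9 CPM in leptin-treated mice, above all 3 fed samples. Pam also lay above all fed samples, at 817, 992, 1090 and 839 CPM (log2 fold change 0.40, adjusted p = 0.156). Thus 0 of 8 members were called by edgeR or DESeq2, where edgeR called 3.73% of all genes higher and 1.75% lower. An unadjusted p under 0.05 by edgeR was found for 4 members and for 3094 of the 13401 genes tested. Without leptin-treated replicate 4, Pcsk1 was called (log2 fold change 0.50, adjusted p = 0.0311).

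**Figure D3:**
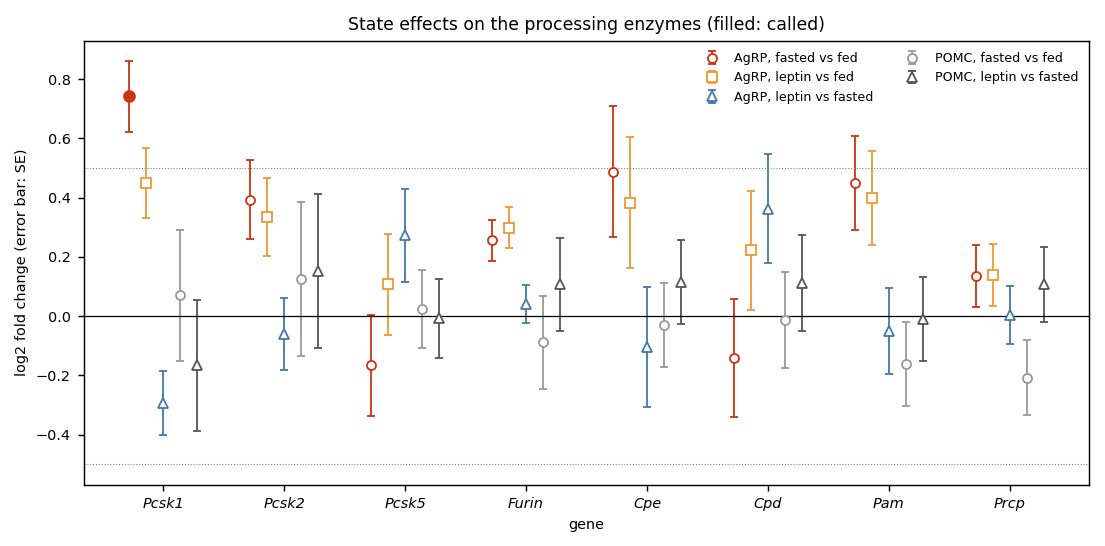
Log2 fold change of each member (bars are the SE) in both lines for fasting and for leptin after fasting, and in AgRP neurons also for leptin-treated against fed mice, with a filled point for a call and dotted lines at the fold limit. Pcsk1 in fasted AgRP neurons, at 0.74, is the filled point, and no member was called in POMC neurons.

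In POMC neurons no member was called in either contrast of states, with 2 samples in each. Pcsk1 stood at 179 and 150 CPM in fed, 204 and 140 in fasted and 165 and 145 in leptin-treated mice. The samples of the 3 states overlapped, and the log2 fold change of fasted against fed mice was 0.07 with a 95% interval of -0.48 to 0.62. Pam stood at 766 and 682 CPM in fed, 665 and 629 in fasted and 646 and 650 in leptin-treated mice (log2 fold change of fasted against fed mice -0.16). For Prcp the fed samples, 14.6 and 15.2 CPM, lay above the fasted ones, 12.6 and 13.1 (log2 fold change -0.21, adjusted p = 1.00). The other members had log2 fold changes between -0.09 for Furin and 0.13 for Pcsk2. EdgeR called 0 of 13412 genes in either POMC contrast, a background of 0% higher and 0% lower, while 282 genes in fasted against fed and 151 in leptin-treated against fasted mice had an unadjusted p under 0.05. Of the members 0 had such a p in either contrast, and DESeq2 called 0 members, with 3 genes in all for fasting and 10 for leptin.

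The difference between the lines in their response to fasting was tested as an interaction. The log2 fold change was higher in AgRP than in POMC neurons by 0.67 for Pcsk1 (SE 0.24, adjusted p = 0.383), by 0.60 for Pam (SE 0.23, adjusted p = 0.421) and by 0.34 for Furin (adjusted p = 0.459). By edgeR 0 of 8 members were called, where 0.141% of the 13435 genes tested were called higher and 0.0223% lower. DESeq2 called 0 members. An unadjusted p under 0.05 by edgeR was found for 3 members and for 1204 of all genes tested. With the replicate number as a block within each line, Pcsk1 (difference 0.71, adjusted p = 0.00169) and Pam (0.58, adjusted p = 0.0015) were called, while calls over all genes rose from 19 higher and 3 lower to 582 and 254. When the Slc1a2-rich libraries were left out, the differences were 0.57 for Pcsk1 (adjusted p = 0.282) and 0.67 for Pam (adjusted p = 0.415), with 1 POMC sample left in each state. For leptin the differences lay between -0.23 and 0.27, 0 members were called or had an unadjusted p under 0.05 in edgeR, DESeq2 called 0, and 0.0447% of all genes were called higher and 0.0372% lower.

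Between the lines, Pcsk5 was the 1 member called. In fed mice it stood at 15.1, 11.6 and 17 CPM in AgRP and 23.3 and 27.3 CPM in POMC neurons, and the groups lay apart. The log2 fold change of AgRP against POMC neurons was -0.80 (SE 0.17, 95% interval -1.17 to -0.43, adjusted p = 0.0163), so that the AgRP level was 0.574 times the POMC level. No member was called higher and 1 of 8 was called lower, where 1.7% of genes (228) were called higher and 1.51% (203) lower, or 200 and 117 when scaled to library size. This call rests on few samples: it was lost without AgRP fed replicate 3 (log2 fold change -0.66, adjusted p = 0.0776), POMC fed replicate 1 (-0.91, adjusted p = 0.0565) or POMC fed replicate 2 (-0.68, adjusted p = 0.181), and with the 5 fed libraries modelled alone (-0.80, adjusted p = 0.107).

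Averaged over the 3 states, with 11 AgRP and 6 POMC samples, Pcsk5 was again lower in AgRP neurons (0.557 times, log2 fold change -0.84, adjusted p = 1.56e-05). Its AgRP libraries, 11.2 to 19.5 CPM, all lay below its POMC libraries, 23.3 to 27.3 CPM, and the call held without the Slc1a2-rich libraries (log2 fold change -0.89, adjusted p = 0.000203). Pam was higher (log2 fold change 0.36, adjusted p = 0.0095), and Cpd (-0.43, adjusted p = 0.0124) and Furin (-0.17, adjusted p = 0.0257) were lower, all short of the fold limit. Pcsk1 (0.04), Pcsk2 (-0.14), Cpe (0.23) and Prcp (-0.04) did not pass. The count was 0 of 8 called higher and 1 called lower, beside 6.51% (875) and 6.45% (866) of all genes, or 1231 and 655 when scaled to library size. Of the astrocyte markers 1 of 5 was called between the lines, Slc1a3, which was lower in AgRP samples. The 5 summed to 391 to 880 CPM in AgRP and 625 to 1134 in POMC samples. Of these 5 log2 fold changes 1 was above 0 (median -0.42). Among oligodendrocyte markers 1 of 5 was above 0 (median -0.17) and among microglia markers 0 of 5 (median -0.36), with 0 called in either list. All 4 tested tanycyte and ependymal markers were below 0 (median -0.72, 1 called), with a sum over 5 markers of 34.3 to 128 CPM in AgRP and 94.9 to 130 in POMC samples. The 4 endothelial markers were also below 0 (median -0.27, 1 called), with sums of 43.7 to 91.5 and 63.9 to 87.4 CPM. Their part in the Pcsk5 difference was not tested.

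Around the members, other enzymes and substrates of the same route were counted in fasted against fed AgRP neurons, where 2.82% of all genes were called higher and 1.07% lower. Among other maturation enzymes 2 of 9 tested were called higher: Cyb561, which carries electrons for the amidating enzyme, went from 171 to 241 CPM (log2 fold change 0.51, adjusted p = 0.0294), and the tyrosylprotein sulfotransferase Tpst2 from 17.4 to 26.4 CPM (0.61, adjusted p = 0.0165). Among peptide-degrading enzymes 1 of 9 was called, the angiotensin-converting enzyme Ace, from 74.5 to 125 CPM (0.76, adjusted p = 0.00922). Among peptide precursors 3 of 18 tested were called higher and 0 lower. Nts, the neurotensin precursor, went from 6.35 to 33.9 CPM (log2 fold change 2.42, adjusted p = 0.00462), the granule protein Vgf from 392 to 1821 CPM (2.22, adjusted p = 0.00155), and Pdyn, the prodynorphin gene, from 67.6 to 107 CPM (0.67, adjusted p = 0.00427). Agrp and Npy were also higher in fasted mice, with an unadjusted p under 0.05 by edgeR, but were not called. The study reports both as induced by fasting. In these 3 lists the median log2 fold change was 0.24, -0.03 and 0.26.

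Of the other proprotein convertases 3 were tested and 0 were called by edgeR (1 unadjusted p under 0.05, Pcsk6; median -0.01). The convertase binding partners, Scg5, the chaperone of Pcsk2, and Pcsk1n, an inhibitor of Pcsk1, were both tested with 0 calls and 0 unadjusted p under 0.05 (median 0.06), and of the other carboxypeptidases 0 of 4 tested were called (1 unadjusted p under 0.05, Cpxm1; median -0.29). In leptin-treated against fed mice, where 3.73% of all genes were called higher and 1.75% lower, the calls among these lists included Cyb561 (log2 fold change 0.58), Tpst1 (0.53), Ace (0.69) and the precursors Nts (2.91), Vgf (2.27) and Agrp (1.69), which were higher, and the carboxypeptidase-like gene Cpxm1 (-0.62) and Ghrh (-1.24), which were lower. Between leptin-treated and fasted mice edgeR made 0 calls among the 45 genes of the 6 lists. There 5 had an unadjusted p under 0.05 in AgRP and 1 in POMC neurons, beside 1224 and 151 of all genes tested. Between fasted and fed POMC neurons 0 were called and 4 had such a p, beside 282 of all genes tested. Of the 6 lists, Vgf alone was called for a different response to fasting in the lines, with a log2 fold change higher by 3.28 in AgRP neurons (adjusted p = 0.00867), where 0.141% of all genes were called higher and 0.0223% lower.

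Across the 11 AgRP libraries the members fell into differing patterns, given here as Pearson correlations of log2 CPM that describe libraries sharing 3 states and 4 replicate numbers. Cpe and Pam varied most alike of all member pairs (r = 0.95), followed by Pcsk2 and Furin (r = 0.85) and Pcsk5 and Cpd (r = 0.76). Cpe against Cpd had r = -0.46 and Pcsk1 against Pcsk5 r = -0.45. Of all genes tested, those nearest to Pcsk1 were Edem2 (r = 0.98), Svs2 (0.97) and Nmb (0.97), and those nearest to Pcsk2 were Slc6a6 (0.98), Chrnb2 (0.95) and Pla2g4e (0.94). Pam was nearest to Atp6v1b2 (0.99), a subunit of the vesicular proton pump, the granule membrane gene Ptprn (0.98) and Arf1 (0.98). Cpe was nearest to Npdc1, Slc25a3 and Rabac1 (each 0.98), Cpd to Mplkip (0.99), A330033J07Rik (0.97) and Arih1 (0.97), and Furin to Herpud2, Wwc2 and Siah2 (each 0.94). Pcsk5 was nearest to AK008482 (0.98), Vipr2 (0.92) and 1700020I14Rik (0.92), and the genes near to Prcp included Zfp592 (0.84) and Golt1b (0.83).

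The 8 genes lie on 7 mouse chromosomes, at chr13:75089826-75134861 for Pcsk1, chr2:143546156-143816285 for Pcsk2, chr19:17432319-17837632 for Pcsk5, chr7:80388585-80405436 for Furin, chr8:64592542-64693054 for Cpe, chr11:76778424-76847018 for Cpd, chr1:97795114-98095646 for Pam and chr7:92874470-92934583 for Prcp (mm10, GENCODE). Pcsk1, Pcsk2 and Prcp lie on the plus strand and the others on the minus strand. Of the 66 peaks of the 3 states around their start sites, 7 reached within 1 kb of the start, 12 lay in exons, 33 in introns and 14 between genes. The start site of another coding gene was nearer for 12 of them. Cpe had 15 peaks, Pcsk1, Pcsk2, Cpd and Prcp 9 each, Pam 7, Furin 6 and Pcsk5 2. Distances are from the start site to the centre of a peak, negative upstream. At the limit of the window, the outermost peak inside had its nearer edge 49.7 kb from the Cpd start site, with 2 to 11 counts per library, and the nearest peak outside began 50.2 kb from that of Pcsk2, with 4 to 111 counts.

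In fasted against fed AgRP nuclei 11 of the 51 member peaks tested were called higher and 4 lower. This is 21.6% and 7.84%, beside 18.1% and 8.88% of all 102237 peaks tested, so the members' shares lay near the background. The median log2 fold change was 0.08 over the member peaks and -0.04 over all peaks. By gene, 3 of 6 tested peaks rose at Pcsk1, 2 of 6 at Furin, 2 of 11 at Cpe, 2 of 6 at Pam, 1 of 6 at Cpd and 1 of 7 at Pcsk2. Peaks fell at Pcsk2 (2), Pam (1) and Prcp (1), and the single peak tested at Pcsk5 was not called.

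The calls lay away from the start sites. Of the 7 start-site peaks 0 were called by edgeR between fasted and fed mice, and DESeq2 called 0. The share of start-site peaks called over all genes is not given here. The study reports that most changed peaks of its data lay between genes or in introns, so this is not a trait of the members. An unadjusted p under 0.05 by edgeR was found for 2 of them and for 40908 of all 102237 peaks tested. The log2 fold changes of the 7 were between -0.37 at Pcsk1 and -0.07 at Pcsk2. The start-site peak of Pcsk1 had 35.7 and 28.4 CPM in fed, 28.9 and 20.2 in fasted and 22.1 and 17.9 in leptin-treated mice. The fed and fasted samples of this peak overlapped (adjusted p = 0.223), whereas the leptin-treated samples lay below the fed ones and were called lower (log2 fold change -0.67, adjusted p = 0.0238). The Pcsk1 call was lost without fed replicate 1 (adjusted p = 0.105), leptin-treated replicate 1 (0.0527) or leptin-treated replicate 2 (0.208). Prcp had the strongest start-site peak, with 90.6 and 90.0 CPM in fed, 74.6 and 72.8 in fasted and 74.1 and 79.6 in leptin-treated mice (log2 fold change of fasted against fed mice -0.29, adjusted p = 0.0813). The start-site peaks of Cpe, 59.0 and 53.9 CPM in fed against 44.2 and 45.0 in fasted mice, lay in the same direction (-0.33, adjusted p = 0.112). Furin had no peak within 1 kb of the start of its gene record, and its nearest peak, at +2.9 kb, lies at a second RefSeq promoter and had 27.4 to 38.8 CPM over the 6 libraries.

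At Pcsk1, the member whose RNA was called higher, accessibility rose at 3 peaks inside the gene, within introns. They were singled out after their values were seen. The peak at +25.1 kb (chr13:75114743-75115071) had 1.37 and 1.51 CPM in fed, 5.80 and 5.04 in fasted and 4.44 and 3.40 in leptin-treated mice (fasted against fed log2 fold change 1.89, adjusted p = 0.00232). The neighbouring peak at +23.4 kb (chr13:75112981-75113530) had 3.72 and 3.96 CPM in fed, 8.99 and 7.72 in fasted and 11.9 and 8.14 in leptin-treated mice (1.11, adjusted p = 0.0245). At both peaks the leptin-treated samples also lay above the fed ones, and the difference was called (log2 fold change 1.41 and 1.36, adjusted p = 0.0163 and 0.00437). These 2 calls were lost without leptin-treated replicate 1 (adjusted p = 0.0917 and 0.0589), and that at +25.1 kb also without fed replicate 1 (0.0646) or 2 (0.0944). The peak at +26.9 kb rested on 25 and 1 raw counts in the fed samples and had 3.10 and 0.0721 CPM there, 7.20 and 5.35 in fasted and 2.92 and 2.23 in leptin-treated mice (2.37, adjusted p = 0.00409), so its fold change is uncertain (6.27 without fed replicate 1). The call at +25.1 kb held whichever library was left out. That at +23.4 kb was lost without fasted replicate 1 (adjusted p = 0.0960), fed replicate 1 (0.0780) or fed replicate 2 (0.0951), and that at +26.9 kb without fed replicate 2 (0.162) or with DESeq2 (0.362).

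Pcsk2 had changes in both directions. The peak at -7.8 kb (chr2:143538012-143538644), in an exon of the antisense gene Pcsk2os1, had 0.993 and 2.16 CPM in fed, 13.1 and 11.3 in fasted and 14.9 and 16.2 in leptin-treated mice (fasted against fed log2 fold change 2.81, SE 0.40, adjusted p = 7.34e-05, and 3.59 without fed replicate 2). The intergenic peak at -38.8 kb (chr2:143507197-143507594) had 3.48 and 3.53 CPM in fed, 0.319 and 0.373 in fasted and 0.416 and 0.279 in leptin-treated mice (-3.31, SE 0.54, adjusted p = 0.000224). In each of these peaks the fasted and leptin-treated samples stood together, apart from the fed ones. The peak at -38.8 kb passed the filter on low values through its fed samples alone. It held 5 and 6 raw counts in the fasted samples, so its fold is uncertain, and it was not tested in every fit that left out a library. An intronic peak at +42.9 kb had 3.72 and 1.95 CPM in fed and 0.701 and 0.934 in fasted mice (-1.67, adjusted p = 0.0213), and this call was lost without fasted replicate 1 (adjusted p = 0.103). The peak at +42.9 kb also passed the filter through its fed samples alone.

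Pam and Cpe each gained a peak upstream that was nearly closed in fed mice. The Pam peak at -23.8 kb (chr1:98119167-98119664) had 0.124 and 0.505 CPM in fed, 2.87 and 3.92 in fasted and 2.98 and 3.57 in leptin-treated mice (log2 fold change 3.19, SE 0.61, adjusted p = 0.000788). It rested on 1 and 7 raw counts in the fed samples, and without fed replicate 2 its log2 fold change was 4.67, so the fold is uncertain. The Cpe peak at -14.6 kb (chr8:64707488-64707904) had 0.745 and 0.649 CPM in fed, 5.03 and 5.79 in fasted and 3.54 and 3.79 in leptin-treated mice (2.97, SE 0.48, adjusted p = 0.00021). Both peaks lie between genes. Inside Pam an intronic peak at +21.9 kb (chr1:98073436-98074094) fell from 8.44 and 6.42 CPM in fed to 0.892 and 1.31 in fasted mice, and stood at 1.60 and 2.57 in leptin-treated mice (-2.70, adjusted p = 0.000122).

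The other called peaks, which lie outside the rule for naming, were at Cpd (-10.3 kb, log2 fold change 2.32), Furin (-7.0 kb, 2.63), Pam (+39.1 kb, 1.43) and, nearer to the start of another gene or within one, at Cpe (-33.4 kb, in an exon of Msmo1, 1.44), Furin (+29.9 kb, near Man2a2, 1.39) and Prcp (-26.1 kb, near Ddias, -1.66). Among them the calls at -7.0 kb of Furin and +39.1 kb of Pam were each lost without fasted replicate 2 (adjusted p = 0.0526 and 0.147), fed replicate 1 (0.0593 and 0.136) or fed replicate 2 (0.0786 and 0.141), and that of Prcp without fed replicate 2 (0.0670). The RNA of Cpd and Prcp was not called in the same contrast, and the RNA of Pcsk1 alone was called among the members with a called peak. The plot of peaks by distance shows that calls in both directions stood in the windows of Pcsk2 and Pam.

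**Figure D4:**
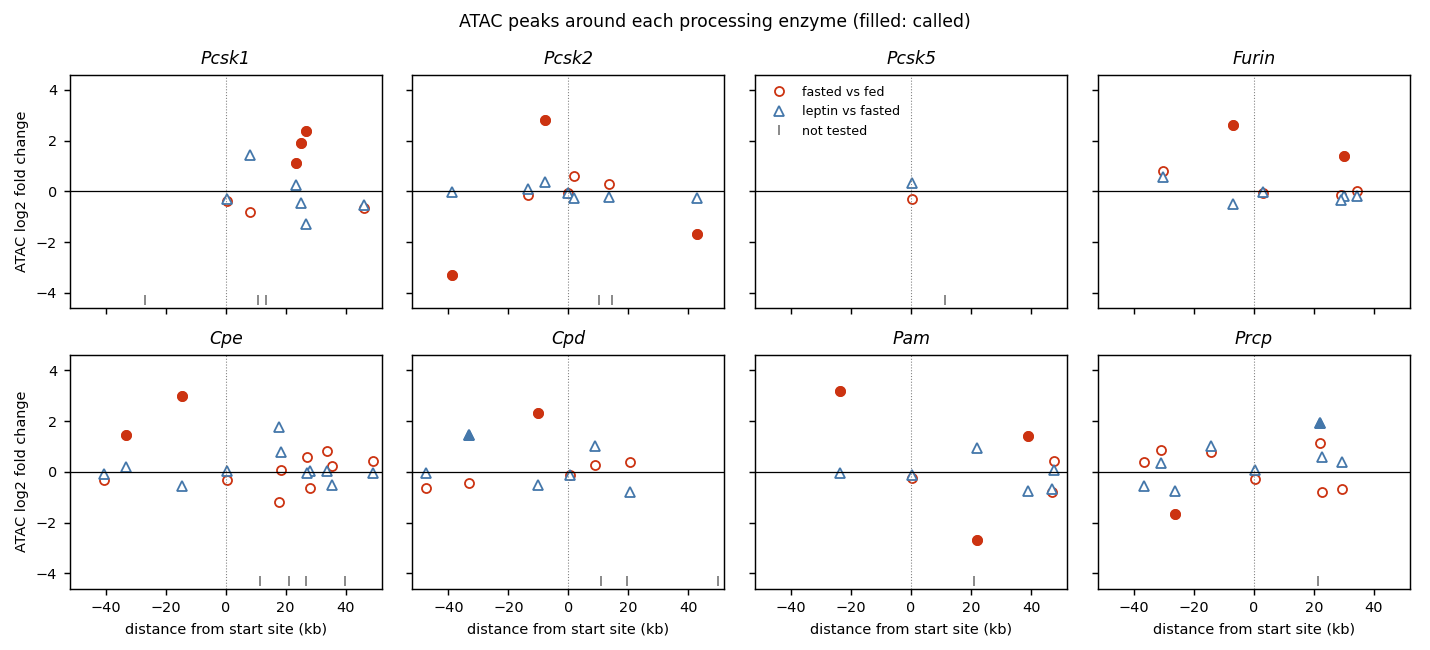
ATAC-seq log2 fold change of fasted against fed (circles) and leptin-treated against fasted mice (triangles) for each peak tested around the members, by distance from the start site (kb), with filled symbols for calls and ticks at the bottom for peaks not tested. The filled circles lay away from the start sites, and stood on both sides of 0 at Pcsk2 and Pam. The share of start-site peaks called over all genes is not given here.

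Leptin changed few member peaks within its 3 h: 2 of 51 were called higher than in fasted mice (3.92%) and 0 lower by edgeR, where 2.41% of all peaks were called higher and 0.669% lower. DESeq2 called 1 higher and 0 lower. An unadjusted p under 0.05 by edgeR was found for 6 member peaks that were higher and 1 that was lower, and for 14193 of all 102237 peaks tested. At Prcp an intronic peak at +22.2 kb (chr7:92896562-92896777) had 0.124 and 0.505 CPM in fed, 0.574 and 1.06 in fasted and 3.54 and 2.79 in leptin-treated mice (leptin-treated against fasted log2 fold change 1.92, adjusted p = 0.0199). This peak passed the filter on low values through its leptin-treated samples alone, the group where it is high. At Cpd a peak at -33.1 kb (chr11:76879705-76880536), nearer to the start of Tmigd1, had 5.61 and 9.71 CPM in fasted and 23.1 and 19.6 in leptin-treated mice (1.47, adjusted p = 0.00361). Both leptin-treated samples were above all fed and fasted samples at each peak, but neither call held without fasted replicate 1 (adjusted p = 0.276 and 0.117) or without leptin-treated replicate 1 (0.160 and 0.0764), and the Prcp call was also lost without leptin-treated replicate 2 (0.0902). Against fed mice 15 peaks (29.4%) were higher and 6 (11.8%) lower, beside 23.3% and 13.5% of all peaks, and the fed samples are shared with the contrast of fasting. The largest of these were the peaks at -7.8 kb of Pcsk2 (3.17), -23.8 kb of Pam (3.15) and +22.2 kb of Prcp (3.07), which moved to 3.95, 4.63 and 4.55 without fed replicate 2, and, falling, those at -38.8 kb of Pcsk2 (-3.33), -26.1 kb of Prcp (-2.41) and +42.9 kb of Pcsk2 (-1.94), the last lost without leptin-treated replicate 1 (-1.62, adjusted p = 0.0681).

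**Figure D5:**
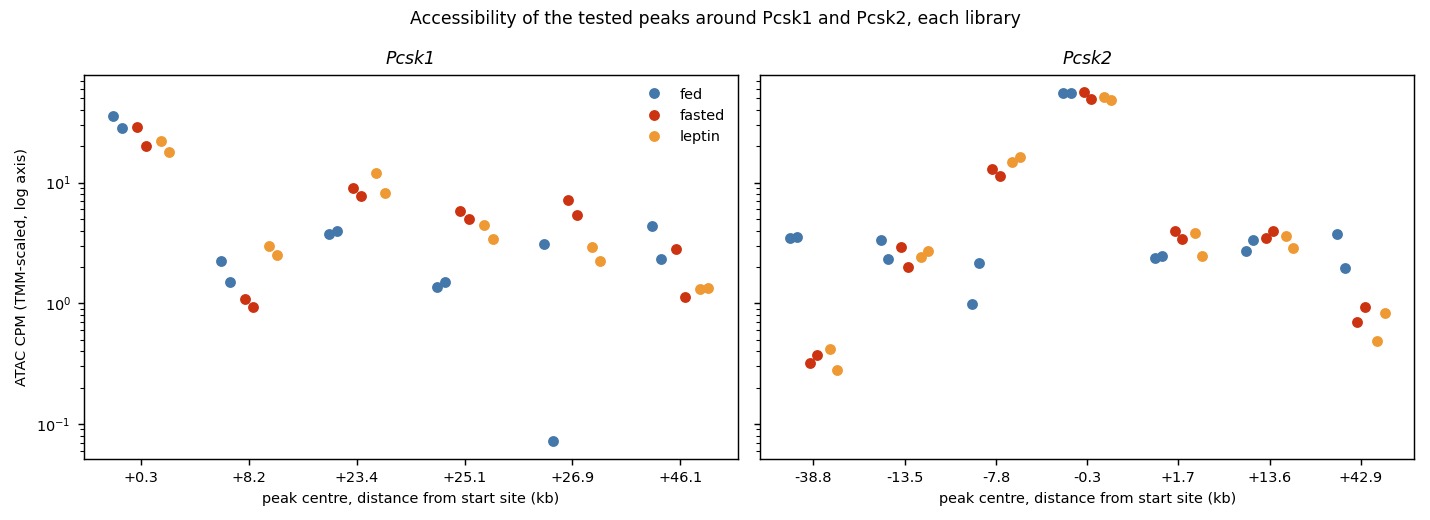
Accessibility (CPM, log axis) of each tested peak around Pcsk1 and Pcsk2, by distance from the start site (kb), in the 2 fed, 2 fasted and 2 leptin-treated libraries, each point a library. The Pcsk2 peak at -7.8 kb had 0.993 and 2.16 CPM in fed mice and 11.3 to 16.2 CPM in the fasted and leptin-treated libraries.

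Between AgRP-positive and AgRP-negative nuclei, 3 of 27 member peaks were called higher (11.1%) and 4 lower (14.8%). Of all 66560 peaks tested 23.9% (15926) were called higher and 15.6% (10405) lower, or 18218 and 7303 peaks when scaled to library size. The share called higher was thus below that of all peaks. The peak at -33.1 kb of Cpd had 1.72 and 2.13 CPM in negative and 9.68 and 11.4 in positive nuclei (log2 fold change 2.44, adjusted p = 4.69e-10). The peak at +29.9 kb of Furin, near Man2a2, went from 1.85 and 0.947 to 4.71 and 6.83 CPM (2.05, adjusted p = 7.05e-05), and an exonic peak at +47.6 kb of Pam from 12.3 and 11.6 to 22.6 and 19.2 CPM (0.81, adjusted p = 0.000408). The peaks at Cpd and Furin overlap peaks that were called in the contrasts of states, at Cpd between leptin-treated and fasted mice and at Furin between fasted and fed mice.

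Lower in AgRP-positive nuclei were the start-site peak of Pcsk5, with 36.7 and 33.6 CPM in negative and 24.0 and 21.2 in positive nuclei (log2 fold change -0.64, adjusted p = 0.000416), and that of Pam, with 46.9 and 34.4 against 30.0 and 24.0 CPM (-0.59, adjusted p = 0.000562). Scaled to library size, both fell short of the fold limit (-0.47 and -0.43). The other 2 lay at Cpe, at -15.7 kb (-1.68, adjusted p = 0.0221) and at +48.3 kb (-1.08, adjusted p = 0.0059), and both were lost without AgRP-negative replicate 1 (adjusted p = 0.325 and 0.316). The first had -2.43 without AgRP-positive replicate 1 and was also lost without AgRP-negative replicate 2 (0.0880) or AgRP-positive replicate 2 (0.173), and the call at the Pam start without AgRP-negative replicate 1 (0.163) or AgRP-positive replicate 2 (0.0635). The start-site peak of Pcsk1 stood at 26.8 and 27.8 CPM in negative and 35.6 and 30.7 in positive nuclei, and this difference did not pass the test (0.28, adjusted p = 0.144). AgRP-negative nuclei hold neurons and glia of many kinds, so each value is an average over them. Blocking on the shared pools changed no member call.

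Some of these peaks overlapped binding data. Of the 66 member peaks of the states, 8 (12.1%) overlapped a CUT&RUN peak of IRF3, from AgRP nuclei of a model that overexpresses the IRF3-2D form, and 6 (9.09%) a CTCF peak of AgRP nuclei, beside 8.42% and 17.9% of all peaks. Of the 28 member peaks of the sorted nuclei, 8 (28.6%) overlapped the IRF3 list and 5 (17.9%) the CTCF list, beside 13.6% and 27.2% of all peaks. None of the 15 peaks called between fasted and fed mice overlapped the IRF3 list, and the Cpe peak at -33.4 kb overlapped the CTCF list. The share of all called peaks that overlap either list is not given here, and 15 peaks are few beside the 8.42% of all peaks that overlap the IRF3 list. The start-site peaks of Pcsk2 and Prcp overlapped both lists, and those of Cpe and Cpd the IRF3 list. Each list came from a single sample, and the IRF3 list was taken as such because it is the single list of its kind, since its own name does not say so.

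Motif matches in the central 300 bases, counted on both strands, were given as a description. AP-1 (TGANTCA) matched in 18 of 51 member peaks (35.3%) and in 32.2% of all peaks tested. STAT (TTCNNNGAA) matched in 4 (7.84%, against 12.4%), the E-box (CACGTG) in 2 (3.92%, against 4.87%) and CRE (TGACGTCA) in 0 (against 0.766%). In the 27 member peaks of the sorted nuclei AP-1 matched in 7 (25.9%, against 17.8% of all), STAT in 4 (14.8%, against 11.1%), the E-box in 1 (3.70%, against 4.86%) and CRE in 0 (against 1.00%). The peak at -14.6 kb of Cpe holds an AP-1 and a STAT match and the peak at +25.1 kb of Pcsk1 an AP-1 match, shown in capitals above. No AP-1, STAT or CRE letters stood in the windows printed for the Pam peak or the Pcsk2 peaks. Of 9 RefSeq promoters of 7 members, Pcsk1 alone held the CRE, which 1.79% of the 32851 promoters of the same length hold, and its letters stand in capitals in the promoter printed above. This promoter lies within the start-site peak of Pcsk1 but outside its central 300 bases. Its CRE is thus left out of the count of 0 in the member peaks. AP-1, STAT and E-box matches were found in 0 of the 9, beside 7.81%, 8.30% and 7.15% of all promoters.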

How the data were processed

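TRAP RNA, ATAC-seq and CUT&RUN files were taken as deposited. For RNA, HISAT2 (mm10) was the aligner and featureCounts the counter, on gene models altered by the authors so that fewer transcripts overlap, and the deposited values are raw counts per gene. For ATAC-seq the authors used Bowtie2, SAMtools (duplicate removal), MACS2 (peaks) and BEDtools (reads per merged peak), and the deposited values are raw counts as well. Gene length in bases, of another kind than a measurement, is given in the deposited count table. The authors' CUT&RUN list taken as IRF3, since no other came from SEACR, holds SEACR signal and their CTCF lists hold fold enrichment (a ratio), and only peak positions were used, with an overlap of 1 base. Tool versions, and the build of the CUT&RUN lists, are not given in the sources used here. Tables of log2 CPM, cerebellar CTCF lists and whole arcuate nucleus RNA were not analysed here.

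Counts were fitted with edgeR 4.0.16 (quasi-likelihood test, TMM scaling, features with a mean over 1 CPM over the libraries of the fit) in R 4.3.3, with the group as the single factor and Benjamini-Hochberg adjustment over all features. A feature was called where the false discovery rate was under 0.05 and the log2 fold change over 0.5 either way. AgRP states shared a fit, as did POMC states, all 17 RNA libraries (comparisons of lines and interactions), ATAC-seq states and sorted nuclei. SE are implied by the F statistic, intervals are 95%, and CPM are TMM-scaled. No row lacked a gene name. RefSeq sequences (GRCm38.p6) gave promoters for 7 of 8 members, and Cpe had no match. Start sites and gene extents were those of GENCODE for mm10. Whether same-numbered replicates belong together was checked on deviations from group means. AgRP pairs had r of 0.587 to 0.853 (median 0.736, 10 pairs). Other AgRP pairs had a median of -0.257 and reached 0.695. POMC pairs had 0.779 to 0.810, but with 2 samples per state the deviations of a state are equal and opposite. The Slc1a2-rich libraries also share a replicate number in each line. Both lines were taken as paired in the block fits alone, and the main tests left the pairing out. ATAC-seq states (-0.00869 to 0.193) were not taken as paired. Sorted nuclei came from shared pools by the study's methods. The study's methods call the AgRP RNA and ATAC-seq samples biological replicates of pooled mice. No such statement on the POMC samples was found in the sources used here, so their p-values measure only the spread between these samples, which may be technical. Alternatives were DESeq2 1.42.0, library size alone, no filter, a narrower window of 10 kb, each replicate left out and the replicate block. The fits without replicate 4 of all AgRP states or without all Slc1a2-rich libraries, and the replicate block over both lines, were added after the data were seen. Members, lists and motifs were chosen with earlier results of these data known. By rule the text names all members, called genes of the other lists (at most 3 each way per list and contrast), up to 3 genes nearest to each member, the start-site peaks and at most 3 called member peaks each way per contrast whose groups do not overlap, and some genes that it selects are not reported here. The scripts were tested on simulated data.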

Additional observations from a re-analysis of the deposited data

Results flagged for a closer look

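Pcsk5 stood at 19.5 CPM in leptin-treated AgRP replicate 4, far from the 13.7 to 14.7 CPM of the other 3 samples. It was the 1 group flagged of 16 groups of 4 samples tested, and chance flags about 1 in 20 such groups. That library is among those with the most Slc1a2, and its part in the value was not tested.

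The response to fasting differed between AgRP and POMC neurons for Pcsk1, by 0.71 on the log2 scale, and for Pam, by 0.58, in the fit with the replicate number as a block within each line. Without the block neither difference passed the test.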

How the results depend on the processing

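Over single members and peaks, 1692 of 1812 alternative values kept their direction and their side of the threshold, and of 410 counts of called members 378 stayed within 1.5 times. The limits are the few samples (2 in each POMC and ATAC-seq group) and the low counts of several changed peaks, below 10 CPM. The cause of the changes listed here was not tested. With library size alone, no member was called higher in fasted against fed AgRP neurons (0 in place of 1), the log2 fold change of AgRP against POMC neurons turned to 0.053 for Cpe and 0.061 for Pam in fed mice and to 0.046 for Prcp over all states, and sorted nuclei had 5 member peaks higher and 2 lower. Without replicate 4 of all states 2 members were called higher in fasted mice. In the model of both lines, leptin-treated against fasted POMC neurons gave 0.0031 for Pcsk5 and 0.0012 for Pam. Without the Slc1a2-rich libraries the difference of lines over all states was -0.064 for Pcsk1 and 0.023 for Pcsk2, and that of the leptin response 0.0099 for Pcsk1 and 0.0034 for Pam. With the 5 fed libraries alone 0 members were called lower in the AgRP line. The replicate block within lines gave 2 members with a higher response to fasting; in the ATAC-seq states, where the numbers do not pair the samples, the replicate block gave 4 member peaks higher and 1 lower with leptin, and DESeq2 gave 1 higher. The block changed no other call of a member gene. In the 10 kb window 2 peaks were higher and 0 lower in fasted against fed mice, 0 higher with leptin against fasted mice, 3 higher and 1 lower against fed mice, and 0 higher and 2 lower in AgRP-positive nuclei.

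Leaving out 1 replicate at a time, the log2 fold change of leptin-treated against fasted AgRP neurons ran from -0.16 to 0.0016 for Pcsk2, -0.22 to 0.017 for Cpe, -0.13 to 0.050 for Pam and -0.067 to 0.057 for Prcp, and against fed neurons from -0.035 to 0.23 for Pcsk5, with 0 to 1 member higher. In POMC neurons, fasted against fed ran from -0.24 to 0.32 for Pcsk1, -0.074 to 0.34 for Pcsk2, -0.083 to 0.14 for Pcsk5, -0.21 to 0.029 for Furin and -0.16 to 0.12 for Cpd. Leptin-treated against fasted ran there from -0.41 to 0.14 for Pcsk1, -0.14 to 0.40 for Pcsk2, -0.030 to 0.024 for Pcsk5, -0.0034 to 0.24 for Furin, -0.024 to 0.27 for Cpd and -0.049 to 0.041 for Pam. AgRP against POMC neurons in fed mice ran from -0.18 to 0.080 for Cpe and -0.13 to 0.068 for Pam, with 0 to 1 member lower, and over all states from -0.042 to 0.14 for Pcsk1. The difference of the lines in the response to fasting ran from -0.29 to 0.0014 for Cpd, and to leptin from -0.43 to 0.13 for Pcsk1, -0.45 to 0.082 for Pcsk2, -0.19 to 0.044 for Furin and -0.13 to 0.046 for Pam. At the start sites, fasted against fed nuclei ran from -0.17 to 0.037 for Pcsk2 and -0.37 to 0.17 for Cpd. Member peaks called numbered 7 to 11 higher (7 without fed replicate 2) and 2 to 4 lower (2 without fed replicate 1) in fasted against fed mice, 0 to 2 higher and 0 to 1 lower with leptin against fasted mice, 8 to 16 higher (8 without leptin-treated replicate 1) and 2 to 7 lower (2 without fed replicate 1, 3 without leptin-treated replicate 1) against fed mice, and 1 to 4 lower in AgRP-positive nuclei (1 without AgRP-negative replicate 1, 2 without AgRP-positive replicate 2).

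Over all genes or peaks, the main calls (higher and lower) that moved by over 1.5 times were, for fasted against fed AgRP neurons, 378 and 143 against 148 and 90 by library size alone and 590 and 340 with the block; for leptin-treated against fasted, 160 and 85 against 107 and 39, and 242 and 148; for leptin-treated against fed, 500 and 235 against 194 and 135 by library size and 715 and 433 with the block. The difference in the response to fasting had 19 and 3 against 124 and 41 by DESeq2, 5 and 1 by library size and 582 and 254 with the block, and that to leptin 6 and 5 against 26 and 13, 1 and 0, and 45 and 57. AgRP against POMC neurons in fed mice had 203 lower against 117 by library size, and 459 higher and 503 lower with the block over both lines. Over all states they had 866 lower against 1534 with the block over both lines. ATAC-seq of leptin-treated against fasted mice had 2460 and 684 against 1434 and 345 by DESeq2 and 3942 and 1933 with the block. Leaving out 1 library, the calls ran from 202 to 471 higher and 68 to 236 lower for fasted against fed AgRP neurons, 268 to 613 and 108 to 259 for leptin-treated against fed, 56 to 83 lower for leptin-treated against fasted, 116 to 253 and 80 to 239 for the lines in fed mice and 0 to 27 and 0 to 4 for the response to fasting. In ATAC-seq they ran from 11846 to 17080 and 4815 to 8436 for fasted against fed mice, 608 (without fasted replicate 1) to 2893 and 7 (without leptin-treated replicate 2) to 1458 for leptin-treated against fasted, 7071 to 13842 lower for leptin-treated against fed, and 6099 to 8534 lower in AgRP-positive nuclei. Single peaks lost their call by DESeq2 for Pcsk2 at +42.9 kb (adjusted p = 0.0514), Prcp at +22.2 kb (0.186), Cpe at -15.7 kb (0.0772), Pcsk1 at +26.9 kb (0.362) and Pam at +39.1 kb (0.103), and by library size for the start-site peaks of Pcsk5 (log2 fold change -0.47) and Pam (-0.43) in sorted nuclei.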

Other observations

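The summed level of the 8 members, most of it Cpe and Pam, was 1966, 2449 and 2269 CPM in the fed AgRP samples, 2609, 3174, 3452 and 2731 in the fasted and 2469, 2969, 3267 and 2751 in the leptin-treated samples. It was 2322 to 2531 CPM in the POMC samples. Every fasted and leptin-treated AgRP sum lay above every fed one, though leptin-treated replicate 1, at 2469 CPM, lay close to fed replicate 3, at 2449. Taken by itself, Cpe overlapped between fasted and fed samples. How often sums of other genes lie apart in this way is not given here.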
